A study of Mus musculus with 9 samples.

Results

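PU.1, encoded by Spi1, is a transcription factor of the ETS family, whose members share a DNA-binding domain that recognises a core of the letters GGAA. PU.1 is needed for myeloid and B cell development and works by dose, so that its level in a progenitor bears on which lineage is taken. GATA2 is a zinc finger factor of stem cells, progenitors and mast cells, and PU.1 and the GATA factors are known to restrain each other.

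The RNA of 7 ETS genes was followed here: Spi1, its close relative Spib, Elf1, Elf4, Ets1, Ets2 and Etv6. All probes whose accession belongs to one of these genes were taken, which gave 12 of 41174 probes, with 3 probes for Ets1, 2 each for Elf1, Elf4 and Etv6, and 1 each for Spi1, Spib and Ets2. All 12 were well above background on all 9 arrays, none lacked a value, and all entered the test along with 36585 probes in all.

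The cells were FDCPmix, an established mouse line of multipotent hematopoietic progenitors that self-renews in IL-3, kept in self-renewal conditions. They were transduced with a lentivirus carrying shRNA against Gata2 (Gata2 KD), shRNA against Pu.1 (Pu.1 KD) or no insert (EV, empty vector), and viable GFP+ cells were sorted after 5 days. Each group had 3 arrays, and 150 ng of total RNA was labeled for each. EV carried no unrelated shRNA, all groups came from 1 line, the Gata2 shRNA is described as a gene-specific shRNA, and how many sequences were used against Pu.1 is not given in the sources used here. The triplicates are described as triplicate samples that were transduced, all of 1 line, so p-values measure the spread among these samples.

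Levels below are log2 processed intensity minus the 75th percentile of the array, so a level of 0 is the level of that percentile. They may be set side by side between arrays for 1 probe and not between probes. On each array 80.4% to 89.6% of spots were well above background and none was saturated. The 9 arrays lay on 3 slides, each with 1 array of each group, and slides held 78.4% of the variance of the first principal component (36.5% of the total), while groups held 98.7% of that of the second (28.4%). EV replicate 3 was least like the others, with a mean correlation of 0.96 over probes. Levels were read for 9 progenitor markers, among them Kit, Cd34, Gata2 and Myb, and all 9 were measured in each group. Their summed linear level was 85.8 to 107 in EV, 96.6 to 114 in Gata2 KD and 83.5 to 92.8 in Pu.1 KD. Gata2 is itself a target of the shRNA, and rises and falls can offset each other in a sum. These sums are therefore no test of cell identity.

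The targeted genes were examined first. The level of Spi1 was -1.66, -1.86 and -2.07 on the EV arrays, -3.62, -3.64 and -3.52 in Pu.1 KD, and -0.66, -0.36 and -0.39 in Gata2 KD. The groups did not overlap in any comparison, with Gata2 KD highest and Pu.1 KD lowest. In Pu.1 KD, Spi1 RNA fell 3.32-fold against EV (log2 change -1.73, SE 0.16, limma adjusted p = 0.00178), to 30.1% of the EV level. The level of Gata2 was 4.5, 5.04 and 4.86 in EV and 3.61, 2.96 and 3.01 in Gata2 KD, a fall of 3.05-fold (log2 change -1.61, SE 0.23, adjusted p = 0.00414). Both knockdowns therefore showed in the RNA they were aimed at, and both were partial.

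Each factor was then examined in the knockdown of the other. Spi1 RNA rose 2.62-fold in Gata2 KD (log2 change 1.39, SE 0.16, limma adjusted p = 0.0012). Gata2 stood at 4.53, 4.87 and 4.55 in Pu.1 KD, within the range of EV, with a log2 change of -0.15 (SE 0.23, 95% interval -0.67 to 0.37, adjusted p = 0.964). Both comparisons share the EV arrays. Set directly against Pu.1 KD, Spi1 was 8.71-fold higher in Gata2 KD (log2 change 3.12, SE 0.16, adjusted p = 7.3e-06). On the 3 slides taken singly, the log2 difference of Spi1 from EV was 1.27, 1.71 and 1.19 for Gata2 KD and -1.86, -1.54 and -1.79 for Pu.1 KD. Fitting the slide as a block gave the same changes, with adjusted p-values of 0.00165 and 0.00349. With normexp background correction (offset 50) in place of the processed signal, all 3 changes of Spi1 shrank on the log2 scale and remained called. The rise in Gata2 KD went from 1.39 to 1.12, the fall in Pu.1 KD from -1.73 to -1.0 and the difference between the knockdowns from 3.12 to 2.12.

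**Figure D1:**
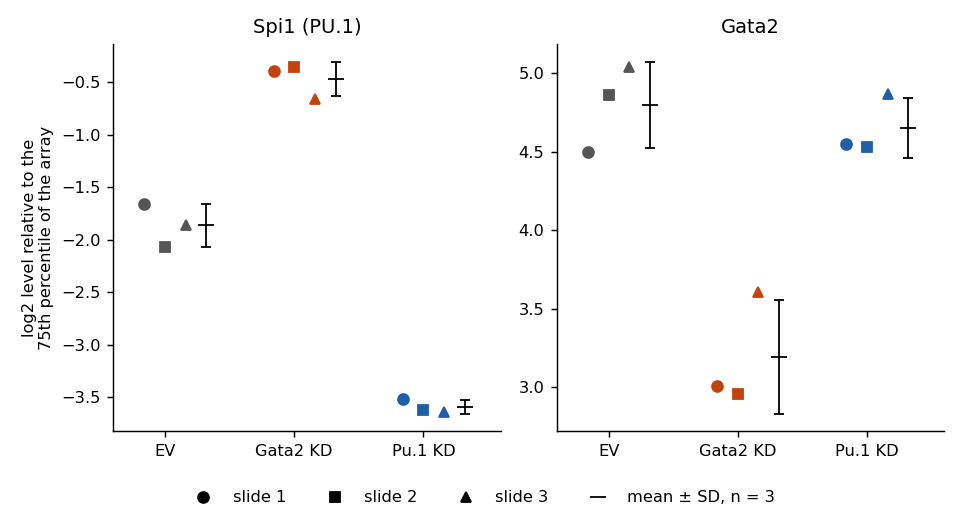
Levels of Spi1 (left) and Gata2 (right) on each of the 9 arrays, as log2 level relative to the 75th percentile of the array, with the 3 groups on the x axis, marker shape for the slide, and bars for mean ± SD (n = 3). For Spi1 the 3 groups are apart, from about -3.6 in Pu.1 KD to -0.47 on average in Gata2 KD, while for Gata2 only the Gata2 KD arrays lie below the rest.

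Spi1 was called in all 3 comparisons and the other 6 genes in none (adjusted p under 0.05, taking for each gene its tested probe with the highest mean level). That is 1 of 7 genes in each, beside 7.15% of all 15808 named genes tested for Gata2 KD against EV, 3.61% for Pu.1 KD against EV and 12.4% for Gata2 KD against Pu.1 KD (6.77% higher and 5.6% lower). In both comparisons with Pu.1 KD the called gene was the target of the shRNA itself. The median log2 change of the 7 genes was 0.05, -0.03 and 0.27 in these comparisons, beside -0.09, -0.04 and -0.03 over all named genes. With the slide as a block 1, 1 and 2 of the 7 genes were called, the added one being Ets1, beside 10.2%, 6.55% and 17.6% of all named genes. Without adjustment, p was under 0.05 for 2, 3 and 3 of the 7 genes. Intervals below are 95% intervals of the log2 change from the fit without the slide, so they also hold differences between slides. They show what size of change that fit leaves possible for the genes that were not called. With the slide as a block some SEs were smaller. For Gata2 KD against EV the SE was 0.12 in place of 0.25 for Spib. For the Elf4 probe A_51_P448856 it was 0.22 in place of 0.46.

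**Figure D2:**
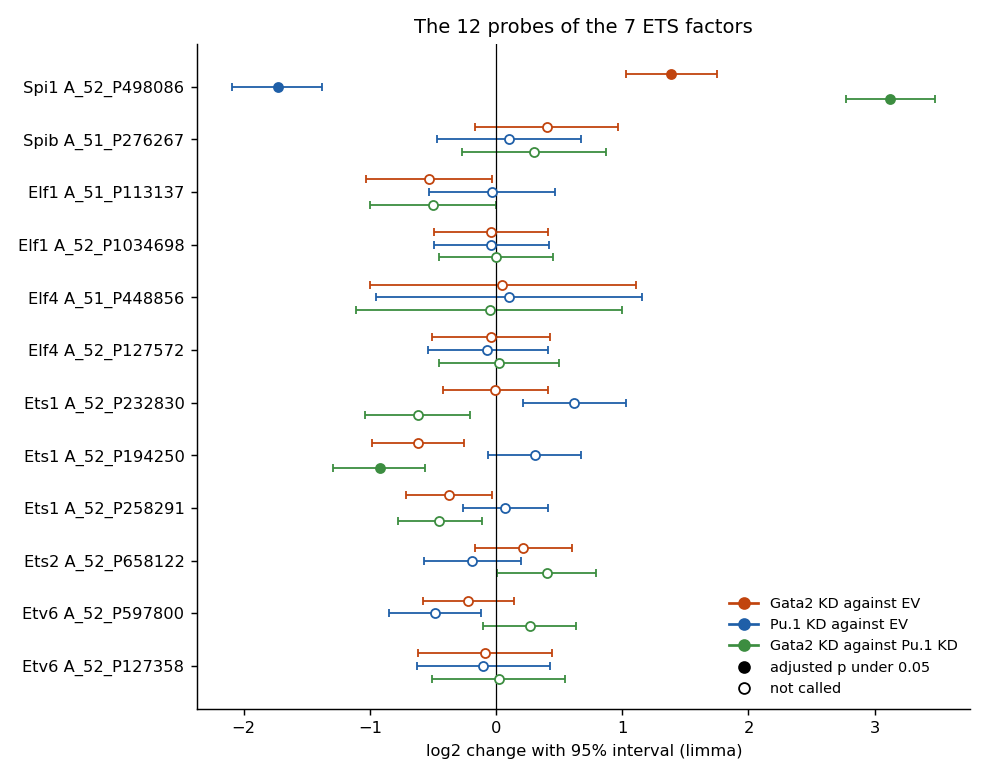
Log2 change of each of the 12 probes in the 3 comparisons, with the 95% interval from limma on the x axis and the probe on the y axis. Filled points passed an adjusted p of 0.05. Only Spi1 in all 3 comparisons and Ets1 probe A_52_P194250 in Gata2 KD against Pu.1 KD are filled, and the Elf4 probe A_51_P448856 has the widest intervals.

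Spib encodes SPI-B, the ETS factor closest to PU.1, with known roles in B cells and plasmacytoid dendritic cells. Its level was -2.65, -3.21 and -2.45 in EV, -2.56, -2.18 and -2.36 in Gata2 KD and -2.46, -3.06 and -2.48 in Pu.1 KD. All groups overlapped, and Spib was called in no comparison. Within slides Gata2 KD lay above EV by 0.29, 0.27 and 0.64, and above Pu.1 KD by 0.12, 0.29 and 0.49. With the slide as a block the limma adjusted p-values of these comparisons were 0.101 and 0.17. The log2 change was 0.40 in Gata2 KD (interval -0.17 to 0.97, limma adjusted p = 0.598) and 0.10 in Pu.1 KD (-0.47 to 0.67, adjusted p = 0.997). A rise of the size seen for Spi1 lies outside the first interval. Among markers of the cells that use Spib, 0 of 8 B cell genes were called in Gata2 KD, with p under 0.05 before adjustment for 2 of them. Of 5 plasmacytoid dendritic cell genes 1 was called higher there. Of all named genes 4.21% were called higher and 2.95% lower in Gata2 KD. In Pu.1 KD 1 B cell gene was called lower, beside 2.16%. Between the knockdowns 1 B cell gene was called higher and 1 lower in Gata2 KD, and 1 plasmacytoid dendritic cell gene higher, beside 6.77% and 5.6%.

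Elf1 and Elf4 belong to the ELF branch, which includes activators of lymphoid and myeloid genes, and Elf4 is known for a part in the cell cycle of stem cells and T cells. The Elf1 probe A_51_P113137 gave 0.61, 0.93 and 1.05 in EV, 0.63, 0.23 and 0.14 in Gata2 KD and 0.54, 1.18 and 0.77 in Pu.1 KD. Gata2 KD was lower by 0.53 on average, with 1 array inside the EV range (log2 change -0.53, interval -1.03 to -0.03, limma adjusted p = 0.31). The other Elf1 probe, A_52_P1034698, did not show this, with a log2 change of -0.04 (interval -0.49 to 0.41). The lower Elf1 level in Gata2 KD was thus seen on 1 probe of 2 and passed the test on neither.

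Elf4 differed more between slides than between groups. Its probe A_51_P448856 gave 0.81, -0.15 and -0.49 in EV, -0.47, 0.11 and 0.68 in Gata2 KD and 0.26, -0.55 and 0.78 in Pu.1 KD. In each group the highest array was the one on slide 1, and the SD within a group reached 0.68. The log2 changes against EV were 0.05 and 0.10, with intervals of -1.0 to 1.11 and -0.95 to 1.16, the widest of the 12 probes. The second probe, A_52_P127572, was tighter, with changes of -0.04 (-0.51 to 0.43) and -0.07 (-0.54 to 0.41).

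Promoter letters were read where the RefSeq table (build GRCm38.p6) held them, in the 250 bases before the transcription start. The table held 7 promoters of 5 of the 7 factors (Spib, Elf1, Elf4, Ets2 and Etv6). The motifs searched on both strands were the ETS core GGAA, the longer PU.1-like run GGAAGTG, which contains the core, and the GATA-like run AGATAAG. Across the 32841 RefSeq promoters, 93.5% held GGAA, 8.55% GGAAGTG and 2.74% AGATAAG, with a median of 3 GGAA per promoter. Of the 7 promoters of the factors 6 held GGAA and none held GGAAGTG or AGATAAG. Elf4, whose first promoter of 2 holds 6 cores, is shown with each core or its complement TTCC in capitals, 5′ to 3′ on the strand of the gene, and Etv6 is shown in the same way where it is described.
Elf4, chrX:48463133-48463382, minus strand: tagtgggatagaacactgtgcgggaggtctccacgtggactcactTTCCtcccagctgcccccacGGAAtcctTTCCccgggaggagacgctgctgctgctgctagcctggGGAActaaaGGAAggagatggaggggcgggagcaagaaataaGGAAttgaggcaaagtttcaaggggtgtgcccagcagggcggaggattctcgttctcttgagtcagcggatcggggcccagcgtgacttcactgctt

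Ets1 and Ets2 are the founding members of the family and are activated by Ras and MAP kinase signalling. Ets1 is best known in lymphoid cells, where its RNA is high, and Ets2 in macrophages. The 3 Ets1 probes all placed the Pu.1 KD arrays above the Gata2 KD arrays, with no overlap, and differed on where EV lay. On probe A_52_P232830, which has the highest mean level, EV gave -0.70, -0.94 and -1.23, Gata2 KD -1.21, -0.87 and -0.81, and Pu.1 KD -0.36, -0.41 and -0.24. Here Gata2 KD lay within EV and the Pu.1 KD arrays lay above both.

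Probe A_52_P194250 put EV between the knockdowns. It gave -2.05, -1.71 and -1.66 in EV, -2.29, -2.53 and -2.45 in Gata2 KD and -1.66, -1.36 and -1.49 in Pu.1 KD. Probe A_52_P258291 gave -1.91, -1.98 and -1.62 in EV, -2.37, -2.15 and -2.10 in Gata2 KD and -1.71, -1.84 and -1.73 in Pu.1 KD, so that only Gata2 KD stood apart.

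Between Gata2 KD and Pu.1 KD the log2 difference of Ets1 was -0.62, -0.92 and -0.45 on these probes, in that order. The middle one passed the test (SE 0.16, limma adjusted p = 0.00728), and the others did not (adjusted p = 0.0722 and 0.12). With the slide as a block all 3 passed, with adjusted p-values of 0.0325, 0.0055 and 0.0381. Within each slide all 3 probes were lower in Gata2 KD, by 0.37 to 0.97. Against EV no Ets1 probe was called. Probe A_52_P232830 was 0.62 higher in Pu.1 KD (interval 0.21 to 1.03, adjusted p = 0.147), and A_52_P194250 was 0.62 lower in Gata2 KD (-0.98 to -0.25, adjusted p = 0.0744, and 0.0396 with the slide as a block). Whether EV lay nearer to Gata2 KD or to Pu.1 KD therefore differed by probe.

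Ets2 stood at 0.06, 0.16 and 0.58 in EV, 0.62, 0.48 and 0.34 in Gata2 KD and 0.12, 0.13 and -0.01 in Pu.1 KD. Every Gata2 KD array was above every Pu.1 KD array, the order opposite to that of Ets1, and EV overlapped both. The difference was 0.40 on the log2 scale (interval 0.01 to 0.79, limma adjusted p = 0.246).

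Etv6, also called TEL, encodes an ETS repressor needed for hematopoiesis in the bone marrow. Its probe A_52_P597800 gave 0.86, 0.95 and 1.33 in EV, 0.72, 0.87 and 0.91 in Gata2 KD and 0.66, 0.52 and 0.52 in Pu.1 KD. The Pu.1 KD arrays lay below all 6 others. Against EV the log2 change was -0.48 (interval -0.85 to -0.12, limma adjusted p = 0.203), and within slides it was -0.34, -0.67 and -0.44. The second probe, A_52_P127358, showed no such order, with a log2 change of -0.10 (-0.63 to 0.43). The promoter of Etv6 holds 3 cores, in capitals.
Etv6, chr6:134035450-134035699, plus strand: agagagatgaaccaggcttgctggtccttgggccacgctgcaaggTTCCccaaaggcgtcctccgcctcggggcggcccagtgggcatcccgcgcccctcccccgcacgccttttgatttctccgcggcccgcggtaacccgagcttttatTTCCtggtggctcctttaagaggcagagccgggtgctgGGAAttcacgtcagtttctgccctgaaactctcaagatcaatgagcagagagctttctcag

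**Figure D3:**
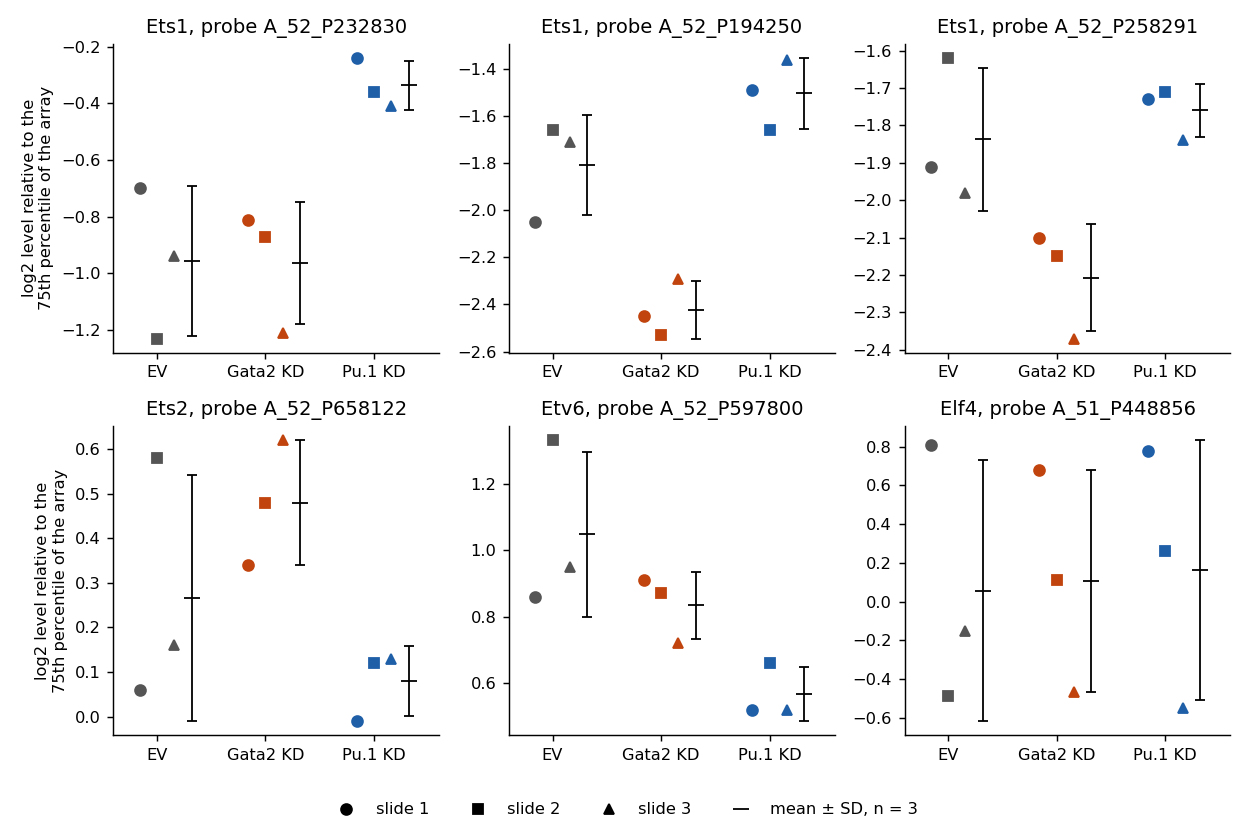
Levels of the 3 Ets1 probes and of the Ets2, Etv6 and Elf4 probes with the highest mean, on each of the 9 arrays (y axis, log2 level relative to the 75th percentile of the array, with its own range in each panel). Bars are mean ± SD (n = 3) and marker shape is the slide. In all 3 Ets1 panels the Gata2 KD arrays lie below the Pu.1 KD arrays, and in the Elf4 panel the slide 1 arrays are highest in each group.

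Counted by overlap, Gata2 KD and EV were apart for 1 of the 7 genes, Spi1, which was higher, beside 23.1% of all named genes (9.5% higher and 13.6% lower). Pu.1 KD and EV were apart for 3 genes, with Ets1 higher and Spi1 and Etv6 lower, beside 20.6% of all named genes (8.61% higher and 11.9% lower). Gata2 KD and Pu.1 KD were apart for 4 genes, with Spi1, Ets2 and Etv6 higher and Ets1 lower in Gata2 KD, beside 30.1% (14.3% higher and 15.8% lower).

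The rest of the ETS family held no gene that passed the test. Of 19 other family members 18 were measured and tested, Elk1 having no named probe. By limma 0 were called in each of the 3 comparisons, beside 7.15%, 3.61% and 12.4% of all named genes, with p under 0.05 before adjustment for 3, 1 and 3 of them, and their median log2 change was -0.17, -0.17 and -0.11. With the slide as a block 1, 0 and 2 were called, beside 10.2%, 6.55% and 17.6%. At such shares a count of 0 to 2 among 18 genes is near the background. The block called Etv4, an ETS activator downstream of growth factor receptors, lower in Gata2 KD (log2 change -0.71 against EV, adjusted p = 0.064 without and 0.00707 with the block) and lower than in Pu.1 KD (-0.65, 0.0578 and 0.00598). It also called Spic, the third member of the PU.1 branch and a factor of iron-recycling macrophages, higher in Gata2 KD than in Pu.1 KD (1.07, 0.207 and 0.0465). Etv4 and Spic are named after their values were seen.

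Factors known to work with PU.1, to act on it or to be set by it were listed together, GATA factors among them. The list held 16 factors, of which 15 were tested (Cebpe had no named probe). In Gata2 KD 5 rose and 2 fell, beside 4.21% and 2.95% of all named genes. The 2 that fell were both GATA factors, and Gata2 was the target of the shRNA. Irf8, a partner of PU.1 on composite sites in macrophages and dendritic cells, rose 20.8-fold on probe A_52_P354823 (log2 change 4.38, SE 0.13, limma adjusted p = 3.47e-06), while its second probe, A_51_P187253, rose by 2.36 on the log2 scale (adjusted p = 0.000819). Gfi1, a repressor that favours granulocytes, rose 4.16-fold (2.06, SE 0.19, adjusted p = 0.000424). Cebpb, a leucine zipper factor of emergency granulopoiesis and macrophages, rose 2.17-fold on probe A_52_P63553 (1.11, SE 0.24, adjusted p = 0.034), a call lost under 9 of 20 alternatives, among them leaving out EV replicate 1 or 3, Gata2 KD replicate 1 or 2 or Pu.1 KD replicate 1 or 3 (adjusted p = 0.0511 to 0.112). The second Cebpb probe gave 1.26 (adjusted p = 0.00549). The falls were in Gata2 itself and in Gata1, the erythroid and megakaryocytic GATA factor, which fell 2.12-fold (-1.08, SE 0.19, adjusted p = 0.0128) and lost the call when Gata2 KD replicate 1 or 3 was left out (adjusted p = 0.054 and 0.0528) or arrays were scaled to their medians (0.0771). With the slide as a block 6 of the 15 were called, 4 higher and 2 lower, the call lost being that of Egr2 (0.86, adjusted p = 0.0492 without and 0.0591 with the block), an early growth response factor of macrophages.

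In Pu.1 KD none of the 15 rose and 2 fell, beside 1.45% and 2.16% of all named genes. Runx1, a core binding factor that acts upstream of and beside PU.1, fell 2.05-fold (log2 change -1.04, SE 0.20, limma adjusted p = 0.037), and Cebpa, the zipper factor of granulocyte and monocyte progenitors, fell 1.75-fold (-0.81, SE 0.14, adjusted p = 0.0257). The Runx1 call was lost under 11 of 20 alternatives, among them leaving out any 1 array other than EV replicate 1 or Gata2 KD replicate 3 (adjusted p = 0.0505 to 0.148). The Cebpa call was lost under 10, among them leaving out EV replicate 1 or 2, Gata2 KD replicate 2 or 3 or any Pu.1 KD array (0.0573 to 0.112), and the second Cebpa probe did not pass (-0.64, adjusted p = 0.228). With the slide as a block 3 of the 15 were called, all lower, the added one being Cebpb (-0.73, adjusted p = 0.205 without and 0.0331 with the block, and -0.51, -0.96 and -0.73 within slides). The median of the 15 was 0.22 in Gata2 KD and -0.15 in Pu.1 KD. Irf8 and Gfi1 in Pu.1 KD had log2 changes of -0.42 and -0.55, with no overlap with EV and adjusted p-values of 0.179 and 0.241.

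Genes long known as PU.1 targets in myeloid cells had the largest median changes of the 4 lists examined. Of 28 listed, 27 were tested (Cd68 had no named probe). In Gata2 KD 18 were called higher and none lower, beside 4.21% and 2.95% of all named genes, with a median log2 change of 1.60 over the 27 and -0.09 over all named genes. In Pu.1 KD none was called higher and 9 lower, beside 1.45% and 2.16%, with a median of -0.48 and -0.04 over all. Between the knockdowns 21 were called, all higher in Gata2 KD, beside 6.77% of all named genes. With the slide as a block the counts were 18, 11 and 22, in the same directions. All these counts take 1 probe per gene. Il7r probe A_51_P196695, well above background on 3 arrays, was lower in Gata2 KD than in EV (-1.39, limma adjusted p = 0.0109) and Pu.1 KD (-1.69, 0.00224). Cybb probe A_52_P444628 (6 arrays) rose in Gata2 KD (4.1, 0.00015) and fell in Pu.1 KD (-1.98, 0.0157). Both are named after their values were seen. The same EV arrays serve both comparisons. The list was chosen with earlier results of these data known. The authors had named Csf1r, Csf2ra, Csf3r, Mpo and Lyz2 among genes raised by Gata2 knockdown. These counts are therefore a description and no independent test.

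Ctss (cathepsin S, a lysosomal protease) and Csf1r (the receptor for the macrophage growth factor) had the largest rises of the targets in Gata2 KD. Ctss rose 70.1-fold (log2 change 6.13, SE 0.24, limma adjusted p = 7.49e-06), and by 5.21 on the log2 scale with normexp. Csf1r rose 23.0-fold on probe A_51_P365885 (4.52, SE 0.20, adjusted p = 1.26e-05), and its other probes disagreed in size, with 3.28 (adjusted p = 2.8e-05) on A_52_P602091 and 0.53 (0.513) on A_52_P570471. In Pu.1 KD, Ctss and Csf1r overlapped EV, with log2 changes of 0.09 and 0.25 (adjusted p = 1 and 0.812), and neither was among the targets with the largest falls there.

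The largest falls in Pu.1 KD were in Fcgr1 and Fcgr3, Fc receptors for IgG, and in Mpo, the peroxidase of neutrophil granules. Fcgr1 fell 8.16-fold (log2 change -3.03, SE 0.23, limma adjusted p = 0.00127, and -2.2 with normexp), Mpo 6.99-fold (-2.81, SE 0.15, 0.000213) and Fcgr3 6.56-fold (-2.71, SE 0.12, 0.000121), with -2.23 (0.0015) on the second Fcgr3 probe. All 3 rose in Gata2 KD, by 1.79, 3.08 and 1.70 on the log2 scale (adjusted p = 0.00236, 1.71e-05 and 0.00012). For each of them, as for Spi1, the Pu.1 KD arrays lay lowest, the EV arrays between and the Gata2 KD arrays highest, with no overlap. Several of the listed targets, Mpo and Fcgr1 among them, are also on the lists of neutrophil or monocyte and macrophage markers. The summed linear level of 11 neutrophil markers was 241 to 270 in EV, 1130 to 1350 in Gata2 KD and 106 to 125 in Pu.1 KD, and that of 6 monocyte and macrophage markers 4.66 to 5.24, 29.3 to 33.0 and 2.34 to 2.57. All 11 neutrophil markers were called higher in Gata2 KD and 9 were called lower in Pu.1 KD, beside 4.21% and 2.16% of all named genes, and all 11 were well above background on at least 1 array of each group. Of the monocyte and macrophage markers 5 were called higher in Gata2 KD and 2 lower in Pu.1 KD. The part of these markers in the levels of Spi1 and of its targets was not tested, and in RNA of a whole sorted population more cells of a type and more RNA per cell cannot be told apart.

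**Figure D4:**
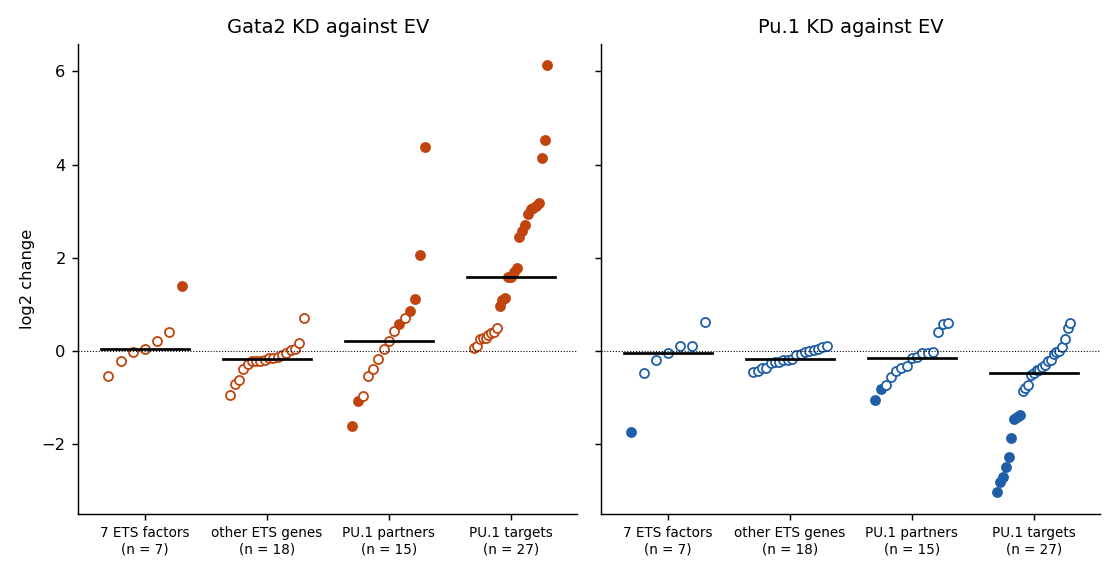
Log2 change against EV of each tested gene (points, filled where adjusted p is under 0.05) in the 7 ETS factors, 18 other ETS genes, 15 PU.1 partners and 27 PU.1 targets, for Gata2 KD (left) and Pu.1 KD (right), with the list's median as a bar. Among the ETS factors the single filled point in each panel is Spi1, and the targets spread up to 6.13 in Gata2 KD and down to -3.03 in Pu.1 KD.

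The 5 named genes whose levels over the 9 arrays were most like those of Spi1 were found by the root mean square difference of centred log2 levels, among 14231 genes well above background on all arrays. Genes with provisional names, such as those ending in Rik or starting with Gm or LOC, were left out before the ranking. The 5 were Bcl3 (0.25), Rnase6 (0.25), Ltb (0.26), Fcgr2b (0.28) and Stab1 (0.29), beside 1.28 for the spread of Spi1 about its own mean. Bcl3 is a partner of NF-kappaB subunits, Rnase6 a secreted ribonuclease of myeloid cells, Ltb lymphotoxin beta, Fcgr2b the inhibitory Fc receptor and Stab1 a scavenger receptor. The 9 points share slides and arrays, and as these genes were chosen for the pattern their values are a description. Bcl3 was at 0.36, 0.48 and 0.52 in EV, 2.07, 2.11 and 1.89 in Gata2 KD and -0.82, -0.99 and -0.76 in Pu.1 KD. For the 5 genes the log2 change ran from 0.88 (Fcgr2b) to 1.81 (Ltb) in Gata2 KD and from -2.08 (Fcgr2b) to -1.31 (Bcl3) in Pu.1 KD. With normexp the change of Rnase6 in Pu.1 KD was -1.27 in place of -1.98. None of the 5 is on the lists of partners and targets. The measure weighs the size of changes, so a gene with the order of Spi1 and larger changes, such as Mpo, can fall outside the 5.

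**Figure D5:**
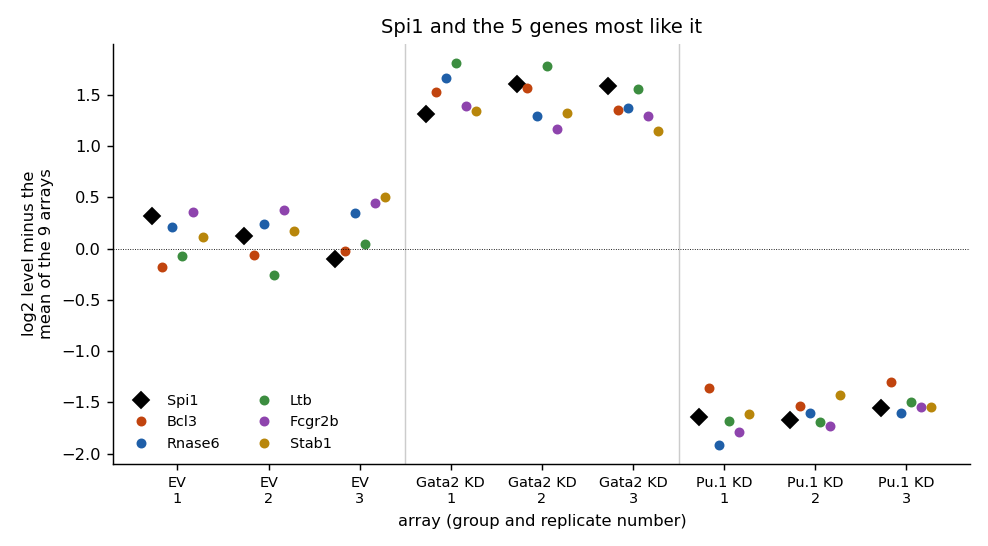
Log2 level minus the mean of the 9 arrays (y axis) for Spi1 (diamonds) and the 5 genes most like it (circles), on each array (x axis, by group and replicate number). All 6 genes lie highest on the 3 Gata2 KD arrays and lowest on the 3 Pu.1 KD arrays.

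Among the 5 genes most like Spi1, 2 genes, Fcgr2b and Rnase6, held GGAAGTG. By promoter that was 3 of 7, beside 8.55% of all promoters. The run counted in Rnase6 lies in 2 of its 3 promoters, which overlap and share 1 site. Among the listed PU.1 targets the table held 21 promoters of 19 genes and the motif was in 2, near the share over all promoters. These 2 were those of Fgr and Prtn3, which are named after the letters were read. These shares are descriptions of small sets, and a match is not a bound site. The promoters of Fcgr2b and Rnase6 (the first of 3 in the table) are shown because, of the 5 genes chosen for their likeness to Spi1, they hold the motif, with GGAAGTG or its complement CACTTCC in capitals. In Fcgr2b the run starts 32 bases before the transcription start, on the other strand, and in Rnase6 it starts 215 bases before it, on the strand of the gene.

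Fcgr2b, chr1:170976072-170976321, minus strand: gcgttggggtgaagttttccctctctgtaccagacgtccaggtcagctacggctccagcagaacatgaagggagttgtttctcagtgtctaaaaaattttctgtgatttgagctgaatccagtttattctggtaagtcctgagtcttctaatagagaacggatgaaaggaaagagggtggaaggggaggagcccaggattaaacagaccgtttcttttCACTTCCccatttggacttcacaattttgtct
Rnase6, chr14:51128814-51129063, plus strand: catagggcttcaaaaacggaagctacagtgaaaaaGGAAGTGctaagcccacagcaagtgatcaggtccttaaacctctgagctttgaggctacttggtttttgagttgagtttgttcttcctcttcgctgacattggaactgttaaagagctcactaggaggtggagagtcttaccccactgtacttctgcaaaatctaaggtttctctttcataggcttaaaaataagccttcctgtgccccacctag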

How the data were processed

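Total RNA of sorted FDCPmix cells was hybridised to single-colour Agilent arrays of the 4x44K mouse design. The authors deposited, for each array, scanner files from Feature Extraction (Agilent, version 10.1.1.1). The processed intensity in the files the authors deposited is background-subtracted within the array and not normalized between arrays. A table of log2 values for the 9 arrays was also deposited by the authors and served as an alternative only. The deposited log2 values tracked the log2 median signal of their arrays (r of 0.997 or more), their column medians were 7.00 to 7.05, and the method behind their scaling is not given in the sources used here. Low processed intensities rest on the background correction, so dim probes are less certain.

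Log2 processed intensity was averaged over spots and the 75th percentile of the array subtracted. Control spots and outlier-flagged spots (47 to 96 per array) were left out. Probes well above background on at least 3 of 9 arrays with 2 or more values in each group were tested with limma 3.58.1 in R 4.3.3 (all 9 arrays, group means, eBayes, Benjamini-Hochberg over 36585 probes, two-sided, threshold 0.05). The test was checked on simulated data drawn independently for each array. These held no slide effect, so the check does not cover differences between slides. Accessions were named through a RefSeq gene table of GRCm38.p6, which named 23374 probes. A gene stands on its tested probe with the highest mean. Groups came from sample titles. For normexp the median signal of a spot was used in place of the planned mean signal. The number of arrays limits the precision.

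The members, lists and rules were chosen with earlier results of these data known. Named were the 3 largest called rises and falls of each list in each comparison against EV, Gata2, Gata1 and the 5 genes most like Spi1. One gene that this rule names is not reported here. Lists of other ETS genes, PU.1 partners, PU.1 targets and cell type markers were written from general knowledge. Alternatives were the slide or replicate number as a block, normexp, quantile and median scaling, no filter or a stricter one, flagged spots kept, trend and robust variance, the authors' log2 table, fits on only the groups compared, any probe of a gene, and each array left out.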

Additional observations from a re-analysis of the deposited data

How the results depend on the processing

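Spi1 was called in the same direction in all 3 comparisons under each of 20 alternatives, with log2 changes of 1.12 to 1.49, -1.84 to -1.0 and 2.12 to 3.22. The count of called factors stayed at 1 for Gata2 KD against EV. For Pu.1 KD against EV it was 2 with normexp and with the deposited values, Ets1 being the added call (adjusted p = 0.0476 and 0.039). For Gata2 KD against Pu.1 KD it was 2 with the slide block, normexp, trend and robust variance, the deposited values or any probe counted, Ets1 being the added call in each, and 1 to 2 with 1 array left out, reaching 2 without EV replicate 3 (Ets1 adjusted p = 0.0459). The number of arrays and the background correction of dim probes limit all of this, and the cause of the moves below was not tested.

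Of the other ETS genes 1 was called for Gata2 KD against EV with the slide block, quantile normalization, the strict filter, trend and robust variance or the deposited values. For Gata2 KD against Pu.1 KD it was 2 with the slide block, trend and robust variance or the deposited values, 1 with quantile normalization, median scaling or the strict filter, and 0 to 1 with 1 array left out, with 1 without EV replicate 2. The count of partners called in Gata2 KD, 7, was 3 with median scaling and 4 with only the groups compared, and 3 to 5 with 1 array left out. In Pu.1 KD, where it was 2, it was 0 with median scaling or only the groups compared, 1 with no filter, and 0 to 1 with 1 array left out. Target counts stayed between 17 and 21 in Gata2 KD and 7 and 12 in Pu.1 KD. With any probe counted, the calls in Gata2 KD included Il7r, which was lower.

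Changes near 0 turned sign in 20 instances, all of factors that were not called. Elf4 in Gata2 KD was -0.02 with normexp and -0.04 with the deposited values, Elf1 in Pu.1 KD 0.01 with median scaling, and Ets1 in Gata2 KD 0.02 with normexp and 0.04 with median scaling. The remaining turns came from leaving out 1 array, where Spib in Pu.1 KD ran from -0.12 to 0.30, Elf1 in Pu.1 KD from -0.21 to 0.11, Elf4 in Gata2 KD from -0.23 to 0.43, in Pu.1 KD from -0.20 to 0.48 and between the knockdowns from -0.41 to 0.26, and Ets1 in Gata2 KD from -0.14 to 0.12. Leaving out EV replicate 2 moved the median log2 change of all named genes from -0.09 to -0.18 in Gata2 KD and from -0.04 to -0.14 in Pu.1 KD.

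Whether arrays with the same replicate number were handled together is not given in the sources used here. Deviations of same-numbered arrays correlated between -0.552 and 0.652. The highest values, 0.652 and 0.517, came from same-numbered pairs that also shared a slide. Same-numbered arrays on different slides correlated between -0.552 and 0.351. Because slide differences enter these deviations, the correlations cannot show whether the numbers mark a pairing. With the replicate number as a block the partner count was 4 in Gata2 KD and 0 in Pu.1 KD, and the block changed no call of the 7 factors, with 1 called in each comparison. Slides are a shared batch, and counts with the slide as a block are given beside those of the lists.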

Other observations

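Markers of lineages outside the myeloid lists were read for the levels that stood beside Spi1. The summed linear level of 7 tested erythroid markers was 10.2 to 12 in EV, 7.31 to 11.6 in Gata2 KD and 18.8 to 21.0 in Pu.1 KD, with 3 called lower in Gata2 KD and 3 called higher in Pu.1 KD by limma. Over all named genes 4.21% were called higher and 2.95% lower in Gata2 KD, and 1.45% higher and 2.16% lower in Pu.1 KD, and the counts of marker genes here stand beside these shares. That of 6 megakaryocyte markers was 52.7 to 71.4, 58.6 to 89.4 and 138 to 165, with 2 called higher in Gata2 KD and 3 in Pu.1 KD. That of 7 mast cell and basophil markers was 100 to 117, 18.4 to 20.1 and 67.3 to 75.7, with 4 called lower and 1 higher in Gata2 KD and 1 lower and 2 higher in Pu.1 KD. Where Spi1 was lowest the erythroid and megakaryocyte sums were highest, with no overlap with EV, and the mast cell sum was lowest where Gata2 was knocked down. In Pu.1 KD the mast cell sum was also below EV, although more of these markers were called higher than lower there. Bright genes weigh most in such sums, so they are no test of cell identity.

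The sums of B cell and T cell markers overlapped between all groups. The summed level of 8 B cell markers was 1.92 to 2.62 in EV, 2.14 to 2.45 in Gata2 KD and 1.84 to 2.37 in Pu.1 KD, and that of 6 T cell markers was 2.61 to 3.68, 2.48 to 3.21 and 3.03 to 3.66. For 5 plasmacytoid dendritic cell markers it was 15.9 to 26.0, 22.4 to 29.1 and 26.2 to 28.0, so that the Pu.1 KD arrays lay just above EV. The part of any of these cells in the levels of the ETS factors was not tested. Of the 9 progenitor markers 3 were called higher and 2 lower in Gata2 KD, and 1 higher and 1 lower in Pu.1 KD.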
